A study of Mus musculus with 8 samples.

Results

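The difference between Id2-GFP+ and Id2-GFP- progenitors was set against itself at a pair of stages of mouse bone marrow, pre-CD8 and CDP. The quantity described is the interaction: the Id2-GFP+ minus Id2-GFP- difference in pre-CD8, minus the Id2-GFP+ minus Id2-GFP- difference in CDP. A positive value means that the difference was higher in pre-CD8 than in CDP, and a negative value that it was lower. All 8 of the 8 arrays of the series enter it, with 2 arrays in each of 4 populations, and 19938 genes were tested.

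Id2 is a helix-loop-helix protein that lacks a DNA-binding region and inhibits E proteins, the transcription factors that bind E-box sequences, by pairing with them. E proteins drive lymphoid and plasmacytoid dendritic cell (pDC) programs, and Id2 is needed for the type of conventional dendritic cell called cDC1, which presents antigen to CD8 T cells and depends on Batf3 and Irf8. CDP usually stands for common dendritic cell progenitor, a marrow cell that gives rise to conventional dendritic cells and can give rise to pDC. Pre-CD8 is the name that the labels give, without a definition, to the other stage.

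The 4 populations were pre-CD8 cells, Id2-GFP+ or Id2-GFP-, and CDP cells, Id2-GFP+ or Id2-GFP-, sorted on a flow cytometer from marrow of mice said in titles, sources and descriptions to carry an Id2-IRES-GFP reporter, in which green fluorescent protein is made from the Id2 transcript. The genotype field gives heterozygous Id2-IRES-GFP for both Id2-GFP- CDP samples and heterozygous Zbtb46-GFP for the other 6, so reporter class and genotype field cannot be told apart in CDP or in the interaction, nor stage and genotype field among Id2-GFP- cells. The labels used here give no treatment, strain, sex or age, no sort gates, and no word on whether replicates came from separate animals; p-values therefore measure array-to-array spread that may be technical. The submitters sought expression signatures of dendritic cell progenitors and their order in development. In bulk RNA of sorted cells, fewer cells of a type and less RNA per cell cannot be told apart.

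The 5 promoters below are printed because they belong to genes with large interactions that the results below return to; they were chosen after the values were seen. Clec9a and Ccr2 had the most positive interactions among the 30 genes named for size, Rag1 and Rag2 lie beside each other and had strongly negative ones, and Ddx58 is a sensor of viral RNA with opposite reporter differences at the 2 stages. Each sequence runs 5′ to 3′ from 250 bases before to 50 bases after the gene's start, as RefSeq gives it for GRCm38.p6. Capitals mark the E-box letters CANNTG, which read alike on both strands, in the first 4 sequences. In the Ddx58 sequence they mark, on the reverse strand, the core of the interferon-stimulated response element, which reads GAAA, then 2 bases of any kind, then GAAA.
Clec9a, chr6:129408612-129408911, plus strand: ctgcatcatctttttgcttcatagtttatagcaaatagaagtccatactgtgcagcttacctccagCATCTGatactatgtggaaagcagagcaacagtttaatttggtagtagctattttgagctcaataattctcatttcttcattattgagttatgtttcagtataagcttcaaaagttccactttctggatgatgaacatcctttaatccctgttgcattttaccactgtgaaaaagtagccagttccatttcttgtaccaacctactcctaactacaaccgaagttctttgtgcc
Ccr2, chr9:124101933-124102232, plus strand: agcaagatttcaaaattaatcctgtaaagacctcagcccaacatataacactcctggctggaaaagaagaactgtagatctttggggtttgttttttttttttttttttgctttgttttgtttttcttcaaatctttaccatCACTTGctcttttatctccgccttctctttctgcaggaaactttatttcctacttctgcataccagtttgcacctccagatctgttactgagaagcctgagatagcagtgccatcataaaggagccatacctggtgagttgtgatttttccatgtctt
Rag1, chr2:101649483-101649782, minus strand: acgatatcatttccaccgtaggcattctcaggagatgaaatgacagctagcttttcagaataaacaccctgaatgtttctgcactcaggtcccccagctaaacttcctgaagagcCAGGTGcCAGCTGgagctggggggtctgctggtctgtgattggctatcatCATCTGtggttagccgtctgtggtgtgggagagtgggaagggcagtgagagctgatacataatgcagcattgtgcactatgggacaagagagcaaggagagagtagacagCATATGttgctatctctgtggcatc
Rag2, chr2:101624462-101624761, plus strand: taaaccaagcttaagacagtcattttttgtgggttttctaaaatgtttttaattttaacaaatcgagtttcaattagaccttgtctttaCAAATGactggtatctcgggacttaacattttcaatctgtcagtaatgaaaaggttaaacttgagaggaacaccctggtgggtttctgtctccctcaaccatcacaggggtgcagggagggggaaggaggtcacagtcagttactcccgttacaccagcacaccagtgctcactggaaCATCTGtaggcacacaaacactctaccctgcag
Ddx58, chr4:40239776-40240075, minus strand: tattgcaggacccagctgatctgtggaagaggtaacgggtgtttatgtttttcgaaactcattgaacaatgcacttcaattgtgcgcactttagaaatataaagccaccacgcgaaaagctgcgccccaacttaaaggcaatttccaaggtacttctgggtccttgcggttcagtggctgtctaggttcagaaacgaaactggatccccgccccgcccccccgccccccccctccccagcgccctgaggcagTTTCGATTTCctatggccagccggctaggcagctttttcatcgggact
Rag1 had 4 E-box matches, Rag2 had 2 and Clec9a and Ccr2 had 1 each. Such a match is common: 67.97% of the 15562 tested genes with a promoter in the table held at least 1, against which stood 64.84% of the 677 promoters of genes with a positive interaction and 68.63% of the 526 with a negative one. The interferon element core, searched on both strands, was in 3.322% of all promoters, 3.988% of those with a positive interaction and 6.084% of those with a negative one. These shares are descriptions of letters in a 300-base window.

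Values are log2 of the deposited intensities. The median log2 intensity of the 8 arrays lay between 6.12 and 6.27. Mean intensity separated a brighter set (461 to 478) from a dimmer set (402 to 414), each holding 1 array of every population, and the set was a block in the fit. The sets also differed in spread. The interquartile range of log2 values was 3.65 to 3.73 on the brighter arrays and 3.15 to 3.41 on the dimmer ones. The brighter set held replicate 2 of Id2-GFP+ pre-CD8, replicate 1 of Id2-GFP- pre-CD8, replicate 2 of Id2-GFP+ CDP and replicate 1 of Id2-GFP- CDP. It is a division made from the arrays' own intensities and is not a batch that the labels name. Differences are given with the standard error (SE) of limma, a linear model that shares information on spread across genes.

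Id2 itself did not pass the interaction test. Its log2 intensity was 10.69 and 10.99 in Id2-GFP+ pre-CD8, against 5.90 and 7.18 in Id2-GFP- pre-CD8, and 9.77 and 9.26 in Id2-GFP+ CDP, against 5.14 and 6.30 in Id2-GFP- CDP. All 4 Id2-GFP+ arrays lay above all 4 Id2-GFP- arrays. The reporter difference was 4.30 in pre-CD8 and 3.79 in CDP, and the interaction was 0.51 ± 0.42 with a 95% interval of -0.42 to 1.44 and an adjusted p of 0.626. It was 0.97 within the brighter set and 0.04 within the dimmer set, and lay between -0.14 without Id2-GFP+ pre-CD8 replicate 2 and 1.15 without Id2-GFP+ pre-CD8 replicate 1, where it passed (adjusted p = 0.0386).

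Across the array, 1492 genes (7.48%) passed at an adjusted p under 0.05, 815 with a positive interaction (4.09%) and 677 with a negative one (3.40%), and 3647 (18.3%) had an unadjusted p under 0.05. These counts rest on the block. Without it limma called 29 genes (0.145%), 7 positive and 22 negative, all of them among the 1492, and 1227 genes had an unadjusted p under 0.05. The 7 were Clec9a, Ccr2, Clec4b1, Ms4a6c, Depdc7, Tifab and Apba1, and the 22 included Rag1, Rag2, Il7r, Myl10, Cmah, Socs2, Lax1, Lat, Gimap6 and Bank1. Of the 95 named genes that passed with the block, 15 passed without it. By list, those that passed without it were 1 cDC1 marker, 4 lymphoid genes, 2 monocyte and macrophage markers, 1 chemokine receptor and 1 growth factor or cytokine receptor. These are 7 different genes. Ccr2 is in both the monocyte and the chemokine receptor list, and Il7r in both the lymphoid and the growth factor receptor list. Each other list described below had 0, with 0 to 27 positive and 0 to 11 negative members at an unadjusted p under 0.05. Leaving out each array in turn, with the block kept, gave 648 calls (without Id2-GFP- CDP replicate 2) to 1459 calls (without Id2-GFP+ CDP replicate 1), and 65 of the 95 named genes passed every time. In the same fit the reporter difference in pre-CD8 passed for 4822 genes (24.2%), of which 2197 were higher (11.0%) and 2625 lower (13.2%) in Id2-GFP+ cells. In CDP it passed for 1566 genes (7.85%), with 735 higher (3.69%) and 831 lower (4.17%). Over all 19938 genes the pre-CD8 and CDP differences, from separate arrays, correlated across genes with a Pearson r of 0.63 and a Spearman rho of 0.49; genes are not independent replicates, and the fit shares its block.

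**Figure D1:**
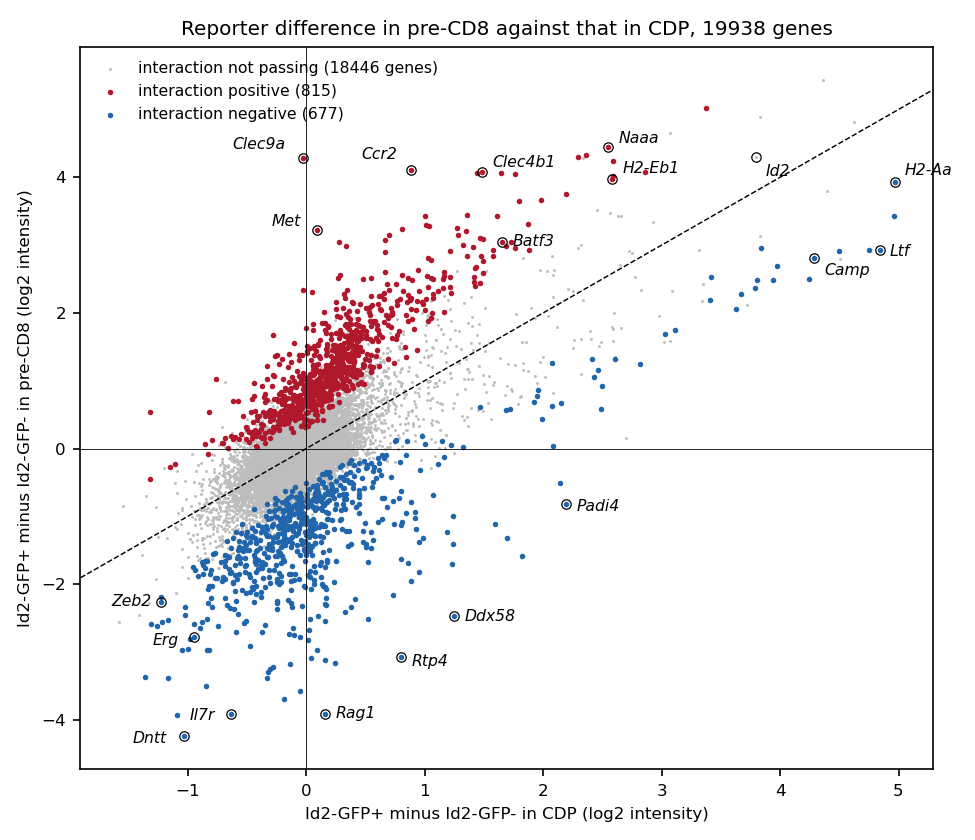
Each point is a gene, with its Id2-GFP+ minus Id2-GFP- difference in pre-CD8 on the vertical axis and in CDP on the horizontal axis (log2 intensity); the dashed line marks equal differences. The 815 genes with a positive interaction lie above the line and the 677 with a negative one below it, while Id2 lies near it with 4.30 and 3.79.

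Most genes with an interaction differed between reporter classes in pre-CD8 and did not pass in CDP. That was so for 583 of the 815 positive genes (71.5%), which were higher in Id2-GFP+ pre-CD8, and for 486 of the 677 negative genes (71.8%), which were lower there. Among all genes tested 8.17% and 9.99% had these patterns. Calls of the reporter difference were fewer in CDP (7.85% of all genes) than in pre-CD8 (24.2%). Another 179 positive genes were higher in Id2-GFP+ cells at both stages, and 83 negative genes were lower at both. Read by population, Id2-GFP- pre-CD8 stood apart most often. Both of its arrays lay below the other 6 for 628 positive genes (77.1%) and above the other 6 for 496 negative genes (73.3%), where among all genes tested 8.10% and 8.22% did so. Both Id2-GFP+ pre-CD8 arrays lay above the other 6 for 224 positive genes (27.5%; 4.17% of all genes). These shares describe genes that were chosen by the interaction itself. The stage difference, pre-CD8 minus CDP, passed for 414 genes (2.08%) in Id2-GFP+ cells, 194 higher (0.973%) and 220 lower (1.10%). In Id2-GFP- cells it passed for 2486 genes (12.5%), 1161 higher (5.82%) and 1325 lower (6.65%), a comparison in which stage goes with the genotype field. Comparing the stage differences of the reporter classes gives the same interaction.

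**Figure D2:**
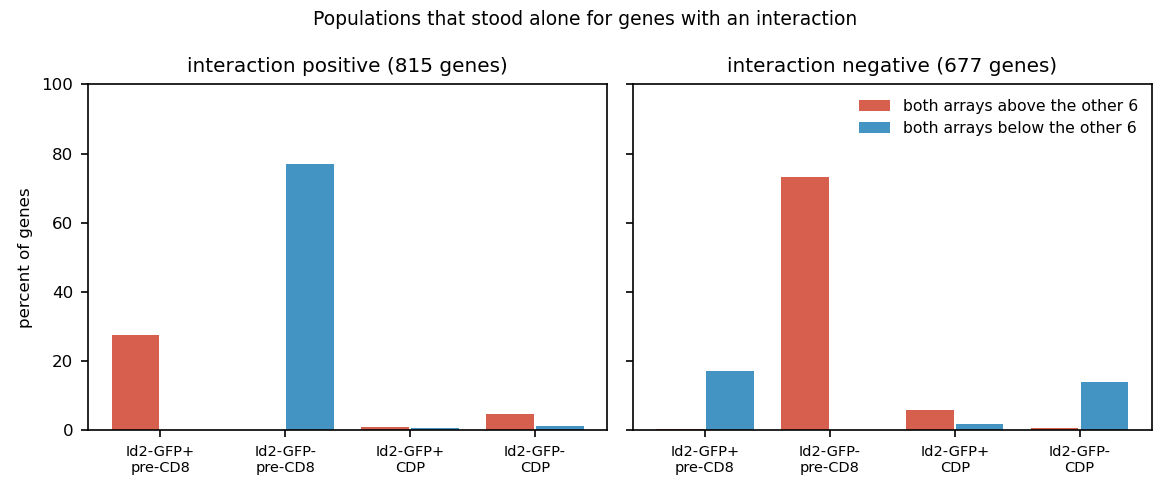
Bars give the percent of genes with a positive (left) or negative (right) interaction for which both arrays of a population lay above or below the other 6 arrays. Id2-GFP- pre-CD8 lay below for 77.1% of the positive genes and above for 73.3% of the negative genes.

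Of 21 measured cDC1 markers 9 passed with a positive interaction, 0 passed with a negative one and 12 did not pass, with 15 positive and 1 negative at an unadjusted p under 0.05, and their median interaction was 1.06, beside -0.01 over all genes. Clec9a, the receptor by which cDC1 recognise dead cells, had the most positive interaction of all genes tested. It was 9.78 and 10.55 in Id2-GFP+ pre-CD8, against 5.47 and 6.28 in Id2-GFP- pre-CD8, and 9.01 and 9.52 in Id2-GFP+ CDP, against 8.92 and 9.65 in Id2-GFP- CDP. Both Id2-GFP- pre-CD8 arrays were far below the other 6, and the CDP arrays of the reporter classes overlapped. The interaction was 4.31 ± 0.47 (adjusted p = 0.000429), with 4.48 in the brighter and 4.14 in the dimmer set.

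Batf3, a transcription factor that cDC1 require, was 10.04 and 10.18 in Id2-GFP+ pre-CD8, against 6.89 and 7.24 in Id2-GFP- pre-CD8, and 8.85 and 8.41 in Id2-GFP+ CDP, against 6.94 and 7.01 in Id2-GFP- CDP. Unlike Clec9a it was higher in Id2-GFP+ cells at both stages, by 3.04 in pre-CD8 and 1.65 in CDP, and the difference was larger in pre-CD8 by 1.39 ± 0.21 (adjusted p = 0.00294). Naaa, a lysosomal amidase, followed the same form, with differences of 4.45 in pre-CD8 and 2.55 in CDP and an interaction of 1.90 ± 0.24 (adjusted p = 0.00101). Rab7b, a small GTPase of late endosomes, had an interaction of 2.08 ± 0.27 (adjusted p = 0.0012). The chemokine receptor Xcr1, a marker of mature cDC1, lay between 4.61 and 5.66 on all 8 arrays and did not pass (0.15 ± 0.25, adjusted p = 0.848). Cd8a, another marker of mature cDC1, lay between 5.39 and 6.27 and did not pass (0.37, adjusted p = 0.44). The count of markers passing was 5 to 14 when each array was left out, and 1, Clec9a, without the block.

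Among the dendritic cell transcription factors, 6 of 31 had a positive interaction and 4 a negative one, with a median of 0.10. When each array was left out there were 2 to 8 positive calls, the lowest without Id2-GFP- CDP replicate 2. Negative calls then numbered 0 to 8, with 0 without replicate 2 of Id2-GFP+ pre-CD8, replicate 2 of Id2-GFP- pre-CD8 or replicate 1 of Id2-GFP- CDP. Irf8, which with Batf3 sets the cDC1 program, was 12.83 and 13.01 in Id2-GFP+ pre-CD8, against 11.45 and 12.10 in Id2-GFP- pre-CD8, and 12.71 and 12.62 in Id2-GFP+ CDP, against 12.39 and 12.77 in Id2-GFP- CDP. It was high in all populations, and the pre-CD8 difference exceeded that in CDP by 1.06 ± 0.20 (adjusted p = 0.00984). Spi1, which encodes the myeloid factor PU.1, had 1.20 ± 0.15 (adjusted p = 0.00107), Mycl 1.29 ± 0.23 and the repressor Bcl6 1.24 ± 0.22. Without Id2-GFP- CDP replicate 2 the calls of Irf8 (adjusted p = 0.0906), Mycl (0.0686) and Bcl6 (0.0504) were lost. Zbtb46, which marks conventional dendritic cells and whose gene carries the reporter named in 6 genotype fields, was higher in Id2-GFP+ cells by 2.05 in pre-CD8 and 1.21 in CDP and did not pass the interaction (0.84 ± 0.31, adjusted p = 0.155).

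Zeb2 and Nfil3 had negative interactions and Klf4 a positive one. Zeb2, a repressor that favours pDC and monocytes, was 6.45 and 7.11 in Id2-GFP+ pre-CD8, against 9.25 and 8.84 in Id2-GFP- pre-CD8, and 8.16 and 9.30 in Id2-GFP+ CDP, against 10.20 and 9.70 in Id2-GFP- CDP. It was lower in Id2-GFP+ cells at both stages, and more so in pre-CD8, with an interaction of -1.04 ± 0.23 (adjusted p = 0.0204). Nfil3, a factor upstream of Id2 in cDC1 development, had an interaction of -1.04 ± 0.23 (adjusted p = 0.022), with a reporter difference of 0.11 in pre-CD8 and 1.15 in CDP. The Zeb2 call was lost without 5 of the 8 arrays in turn and that of Nfil3 without 4, with adjusted p up to 0.116 and 0.133. Klf4, a factor of cDC2 and monocytes, had 1.98 ± 0.45 (adjusted p = 0.0233) and lost its call without 5 arrays (adjusted p up to 0.0904).

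The E proteins and the other Id proteins showed no passing interaction. Over all genes tested 7.48% passed, and 18.3% had an unadjusted p under 0.05. Beside these shares, counts in so short a list say little about the family. Of 11 helix-loop-helix genes 1 passed, Mxd4, a partner of Max, with -0.88 ± 0.20 (adjusted p = 0.0219), lost without 6 of the 8 arrays in turn (adjusted p up to 0.125); 3 had an unadjusted p under 0.05. Tcf4, the E protein E2-2 that pDC need, was 9.87 and 9.84 in Id2-GFP+ pre-CD8, against 10.77 and 10.77 in Id2-GFP- pre-CD8, and 9.71 and 10.12 in Id2-GFP+ CDP, against 10.36 and 10.47 in Id2-GFP- CDP. It was lower in Id2-GFP+ cells at both stages, with differences of -0.91 in pre-CD8 and -0.50 in CDP, and the interaction was -0.41 ± 0.17 (adjusted p = 0.235). Tcf3 had -0.03 ± 0.18, Tcf12 -0.15 ± 0.15, Id1 -0.28 ± 0.22 and Id3 -0.12 ± 0.22.

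**Figure D3:**
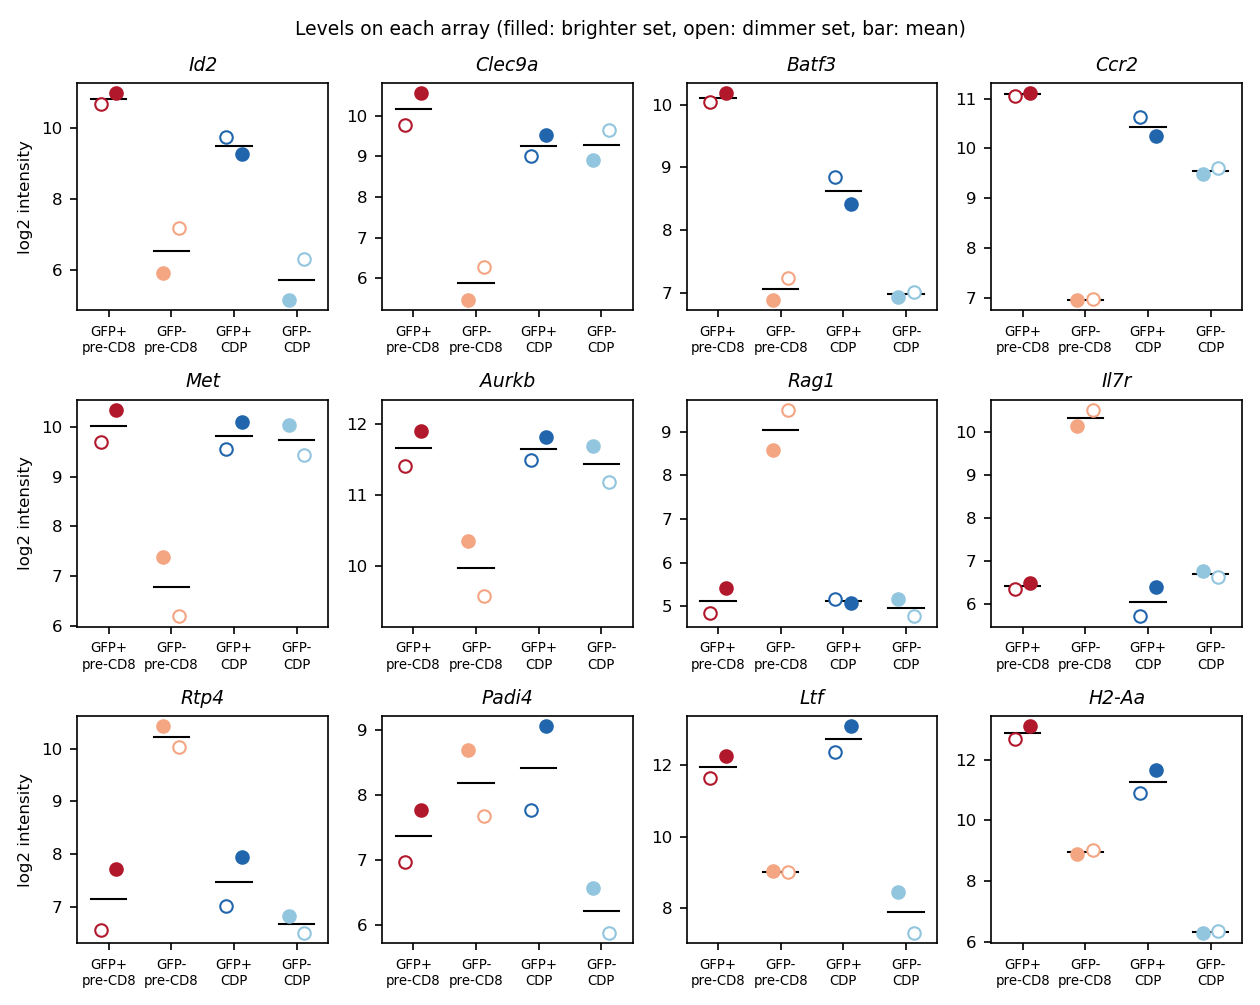
Log2 intensity of 12 genes on each array, with filled points for the brighter set, open points for the dimmer set and a bar at the population mean. Id2-GFP- pre-CD8 is low for Clec9a, Ccr2, Met and Aurkb and high for Rag1, Il7r and Rtp4.

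Besides Clec9a, the 15 largest positive interactions included those of Ccr2 and Met. Ccr2, a chemokine receptor of monocytes and dendritic cell progenitors, was 11.06 and 11.11 in Id2-GFP+ pre-CD8, against 6.97 and 6.98 in Id2-GFP- pre-CD8, and 10.63 and 10.25 in Id2-GFP+ CDP, against 9.49 and 9.61 in Id2-GFP- CDP. It was high in all but Id2-GFP- pre-CD8, with an interaction of 3.22 ± 0.17 (adjusted p = 1.41e-05). Met, the receptor for hepatocyte growth factor, was 9.69 and 10.34 in Id2-GFP+ pre-CD8, against 7.39 and 6.20 in Id2-GFP- pre-CD8, and 9.54 and 10.10 in Id2-GFP+ CDP, against 10.03 and 9.43 in Id2-GFP- CDP. Its CDP difference was 0.09, and the interaction 3.13 ± 0.22 (adjusted p = 4.39e-05).

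Clec4b1, a C-type lectin receptor, was 7.07 and 7.60 in Id2-GFP+ pre-CD8, against 3.34 and 3.17 in Id2-GFP- pre-CD8, and 5.16 and 5.43 in Id2-GFP+ CDP, against 3.91 and 3.72 in Id2-GFP- CDP. It was above the other populations in Id2-GFP+ pre-CD8, and its interaction was 2.60 ± 0.18 (adjusted p = 4.39e-05). Its Id2-GFP- values, 3.17 to 3.91, were dim beside array medians of 6.12 to 6.27, so differences among them may be compressed. The stage difference of Clec4b1 was 2.04 in Id2-GFP+ and -0.56 in Id2-GFP- cells. Ifi30, a thiol reductase of antigen processing, had 2.62 ± 0.36, the sterol hydroxylase Cyp27a1 had 2.65 ± 0.31 and the activating receptor gene Klrk1 had 2.44 ± 0.28. Ms4a4c, Ifi207, Fkbp1b, Ffar4, H2ac4, Depdc7, Plxdc1 and Tlr1 completed the 15 largest, from 2.29 to 2.77. All 15 kept their direction when each array was left out. Without the block, Clec9a, Ccr2, Clec4b1 and Depdc7 passed and the rest of the 15 did not.

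Of 16 monocyte and macrophage markers 8 were positive and 0 negative (8 and 3 at an unadjusted p under 0.05), with a median of 0.67. The positive count was 4 without replicate 1 of Id2-GFP+ CDP or replicate 2 of Id2-GFP- CDP, and 5 without replicate 2 of Id2-GFP+ pre-CD8 or replicate 1 of Id2-GFP- pre-CD8. It was 2 without the block. Besides Ccr2 they included Ms4a6c, with 1.87 ± 0.11 (adjusted p = 1.92e-05), and the saposin precursor Psap, with 0.90 ± 0.11 (adjusted p = 0.000716). Their summed level was 14.7 and 14.9 on the log2 scale in Id2-GFP+ pre-CD8, against 13.3 and 13.3 in Id2-GFP- pre-CD8, and 14.8 and 14.9 in Id2-GFP+ CDP, against 14.5 and 14.5 in Id2-GFP- CDP. Csf1r, the receptor for the macrophage growth factor, did not pass (-0.39 ± 0.20, adjusted p = 0.346).

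Genes of mitosis had the largest share passing among the 24 lists. Of 33 genes of G2 and M phase 32 had a positive interaction and 0 a negative one (33 and 0 at an unadjusted p under 0.05), with a median of 1.13, and the exception was the cyclin Ccnb2, named after its value was seen (0.68 ± 0.21, adjusted p = 0.0903). Aurkb, a kinase of chromosome segregation, was 11.40 and 11.90 in Id2-GFP+ pre-CD8, against 10.35 and 9.58 in Id2-GFP- pre-CD8, and 11.49 and 11.81 in Id2-GFP+ CDP, against 11.69 and 11.18 in Id2-GFP- CDP. Id2-GFP- pre-CD8 was lower than the other populations, whose ranges overlapped, and the interaction was 1.48 ± 0.14 (adjusted p = 0.000214). The microtubule bundler Prc1 had 1.66 ± 0.19, Birc5 (survivin) 1.35 ± 0.16 and the kinase Plk1 1.22 ± 0.12.

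The reporter difference in pre-CD8 was positive and passed for all 33, with a median of 1.53, and that in CDP for 12, with a median of 0.36. The stage difference in Id2-GFP- cells was negative and passed for all 33, with a median of -1.11, and the genotype field differs with stage there too. In Id2-GFP+ cells its median was -0.02 and limma passed 0 in either direction (0 higher and 1 lower at an unadjusted p under 0.05). The median interaction was 0.99 within the brighter and 1.24 within the dimmer set, and 25 to 33 genes passed when each array was left out. Without the block 0 interactions passed after adjustment, and 27 were positive at an unadjusted p under 0.05. The reporter difference then passed for 27 of the 33 in pre-CD8 and 0 in CDP (5 at an unadjusted p under 0.05), and the stage difference in Id2-GFP- cells for 9.

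Genes of DNA replication were also tested. Of 29 S phase genes 6 were positive and 0 negative (19 and 0 at an unadjusted p under 0.05), with a median of 0.46. Rrm2, a subunit of ribonucleotide reductase, had 1.14 ± 0.21 (adjusted p = 0.00737). The replication genes Fen1, Uhrf1 and Rfc4 had 0.72 ± 0.15, 0.65 ± 0.16 and 0.58 ± 0.15, and their calls were lost without 5, 6 and 7 of the 8 arrays in turn; that of Rrm2 was lost without Id2-GFP- CDP replicate 2 (adjusted p = 0.0712). The number of S phase genes passing ranged from 0 to 8 over those fits, with 0 without Id2-GFP- CDP replicate 2. It was 2 after quantile normalization and 0 without the block, where 1 was positive at an unadjusted p under 0.05.

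Genes of lymphoid priming included the most negative interaction of all, that of Rag1. Of 21 genes of lymphoid priming and the B lineage 12 were negative, with a median of -1.04, and 2 were positive, Fcrla (1.44 ± 0.20) and Cd22 (2.00 ± 0.46), both named after their values were seen. Rag1, a subunit of the recombinase that assembles antigen receptor genes, was 4.84 and 5.42 in Id2-GFP+ pre-CD8, against 8.58 and 9.50 in Id2-GFP- pre-CD8, and 5.16 and 5.08 in Id2-GFP+ CDP, against 5.16 and 4.76 in Id2-GFP- CDP. It was high on both Id2-GFP- pre-CD8 arrays and low on the other 6. The interaction was -4.07 ± 0.39 (adjusted p = 0.00023), with -3.09 in the brighter and -5.05 in the dimmer set.

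Rag2, the other subunit, was 4.53 and 4.60 in Id2-GFP+ pre-CD8, against 7.70 and 7.61 in Id2-GFP- pre-CD8, and 4.96 and 4.95 in Id2-GFP+ CDP, against 4.97 and 4.85 in Id2-GFP- CDP. The pattern was that of Rag1 with less spread, and the interaction was -3.13 ± 0.17 (adjusted p = 1.41e-05). Il7r, the interleukin 7 receptor chain of lymphoid progenitors, was 6.35 and 6.49 in Id2-GFP+ pre-CD8, against 10.14 and 10.52 in Id2-GFP- pre-CD8, and 5.71 and 6.41 in Id2-GFP+ CDP, against 6.77 and 6.62 in Id2-GFP- CDP. Its interaction was -3.28 ± 0.29 (adjusted p = 0.000144).

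Dntt, the polymerase that adds bases at receptor gene joints, was 7.28 and 8.17 in Id2-GFP+ pre-CD8, against 11.86 and 12.07 in Id2-GFP- pre-CD8, and 6.38 and 7.77 in Id2-GFP+ CDP, against 7.83 and 8.37 in Id2-GFP- CDP. It was highest on both Id2-GFP- pre-CD8 arrays, and the interaction was -3.21 ± 0.51 (adjusted p = 0.0033). Ebf1, a transcription factor that specifies B cells, had -3.06 ± 0.40 (adjusted p = 0.00112). Signalling genes of lymphocytes among the 15 most negative were Lax1 (-3.27 ± 0.23) and Lat (-3.03 ± 0.20). The 15 also held Gimap6 (-3.04 ± 0.20), Myl10 (-3.52 ± 0.23), Cmah (-3.50 ± 0.28), Socs2, a brake on cytokine signalling (-3.41 ± 0.18), and Tlr7 (-3.04 ± 0.22).

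Summed over the 21 lymphoid genes, the log2 level was 12.0 and 12.2 in Id2-GFP+ pre-CD8, against 13.5 and 13.8 in Id2-GFP- pre-CD8, and 11.7 and 11.8 in Id2-GFP+ CDP, against 11.8 and 11.9 in Id2-GFP- CDP. The count of negative genes was 7 to 11 when each array was left out and 4 without the block. In Id2-GFP- cells, where stage goes with the genotype field, all 12 were higher in pre-CD8. Of 18 T, NK and ILC markers 2 were negative, the kinase Zap70 (-1.21 ± 0.20) and Nkg7 (-2.11 ± 0.37), and the second did not pass without Id2-GFP- CDP replicate 2 (adjusted p = 0.0528). Whether other cells in the Id2-GFP- pre-CD8 sort take part in these values was not tested.

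Of 16 pDC markers 5 were negative, 2 were positive and 9 did not pass, with a median of -0.52. Negative calls numbered 2 (without Id2-GFP- CDP replicate 2) to 6 over the fits that left out an array. Tlr7, a receptor for single-stranded RNA, was 5.66 and 6.33 in Id2-GFP+ pre-CD8, against 9.57 and 9.17 in Id2-GFP- pre-CD8, and 5.97 and 6.90 in Id2-GFP+ CDP, against 6.98 and 6.55 in Id2-GFP- CDP. Tlr9, a receptor for DNA that pDC also use, went the other way with 1.75 ± 0.29 (adjusted p = 0.004), and so did Bst2, named after its value was seen (0.72 ± 0.16). The chemokine receptor Ccr9 had -2.01 ± 0.36, a call lost without Id2-GFP- CDP replicate 2 (adjusted p = 0.0501).

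Siglech, a surface marker of pDC and their precursors, was 7.84 and 7.81 in Id2-GFP+ pre-CD8, against 8.53 and 10.44 in Id2-GFP- pre-CD8, and 8.13 and 8.12 in Id2-GFP+ CDP, against 8.20 and 9.50 in Id2-GFP- CDP. Both Id2-GFP- populations were split between replicates by more than 1 on the log2 scale, and the interaction did not pass (-0.93 ± 0.53, adjusted p = 0.417). Ly6d, a marker of lymphoid and pDC progenitors, was likewise split in Id2-GFP- pre-CD8 (8.36 and 10.25). Its interaction of -1.79 ± 0.40 (adjusted p = 0.0208) did not pass without 5 of the 8 arrays in turn, with adjusted p up to 0.110.

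Interferon response genes that passed mostly had negative interactions. Of 20 measured, 11 were negative and 1, Bst2, positive, with a median of -1.15. Rtp4, an interferon-induced protein, was 6.58 and 7.73 in Id2-GFP+ pre-CD8, against 10.42 and 10.04 in Id2-GFP- pre-CD8, and 7.02 and 7.94 in Id2-GFP+ CDP, against 6.84 and 6.51 in Id2-GFP- CDP. It was lower in Id2-GFP+ pre-CD8 by 3.08 and higher in Id2-GFP+ CDP by 0.80, an interaction of -3.88 ± 0.27 (adjusted p = 4.39e-05).

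Ddx58, which encodes the RNA sensor RIG-I, was 6.60 and 7.58 in Id2-GFP+ pre-CD8, against 9.74 and 9.38 in Id2-GFP- pre-CD8, and 6.90 and 7.83 in Id2-GFP+ CDP, against 6.31 and 5.93 in Id2-GFP- CDP. Its interaction was -3.72 ± 0.25 (adjusted p = 3.67e-05). Oas2, an RNA-activated synthetase, had differences of -1.70 in pre-CD8 and 1.23 in CDP and an interaction of -2.93 ± 0.23. Oasl2 (-2.70 ± 0.24) and Oas1a (-1.48 ± 0.19) were lower in Id2-GFP+ pre-CD8 and did not pass in CDP. The list was not uniform: Mx1, Zbp1 and Stat2, named after their values were seen, were higher in Id2-GFP+ pre-CD8, by 1.06, 0.82 and 0.59, and their interactions of 0.40, -0.21 and 0.34 did not pass. The count of negative genes was 10 to 12 when each array was left out and 0 without the block (10 negative and 1 positive at an unadjusted p under 0.05).

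Opposite differences that both passed were found for 40 genes with an interaction. In 32 of them (0.16% of all genes) Id2-GFP+ cells were lower in pre-CD8 and higher in CDP, and in 8 (0.04%) the reverse. The CDP calls rest on the block. Without it, over all genes, limma called 119 higher and 0 lower in Id2-GFP+ CDP, with 685 and 413 at an unadjusted p under 0.05. Besides Rtp4, Ddx58 and Oas2, the 32 included Padi4, an enzyme that citrullinates histones, with 6.97 and 7.77 in Id2-GFP+ pre-CD8, against 8.70 and 7.68 in Id2-GFP- pre-CD8, and 7.77 and 9.06 in Id2-GFP+ CDP, against 6.57 and 5.88 in Id2-GFP- CDP. The pre-CD8 arrays of both reporter classes overlapped before the set was taken into account, and the CDP arrays did not. Lat and Bank1, an adaptor of B cells, also had opposite differences, with -2.51 and -1.95 in pre-CD8 and 0.52 and 0.89 in CDP. The largest of the 8 was Sh3pxd2b, an adaptor of cell protrusions named after its value was seen, with 0.53 in pre-CD8, -0.82 in CDP and an interaction of 1.35.

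Many early progenitor genes had a reporter difference that was lower in pre-CD8. Of 23 genes 14 had a negative interaction and 0 a positive one (20 and 0 at an unadjusted p under 0.05), with a median of -1.22. Cd93, a surface receptor of early progenitors, was 9.22 and 8.88 in Id2-GFP+ pre-CD8, against 11.71 and 11.68 in Id2-GFP- pre-CD8, and 10.64 and 10.95 in Id2-GFP+ CDP, against 11.81 and 11.58 in Id2-GFP- CDP. The Id2-GFP+ pre-CD8 arrays were the lowest, while the 4 Id2-GFP- arrays lay between 11.58 and 11.81; the interaction was -1.75 ± 0.19 (adjusted p = 0.000445).

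Mycn, a growth-promoting factor, was 6.27 and 6.44 in Id2-GFP+ pre-CD8, against 8.81 and 7.98 in Id2-GFP- pre-CD8, and 5.22 and 5.08 in Id2-GFP+ CDP, against 5.31 and 5.00 in Id2-GFP- CDP. It was highest in Id2-GFP- pre-CD8, with an interaction of -2.03 ± 0.27 (adjusted p = 0.0014). The stem cell factors Erg and Hoxa9 had -1.83 ± 0.24 and -1.75 ± 0.21. Kit, the receptor for stem cell factor, did not pass (0.18 ± 0.12, adjusted p = 0.523), and Flt3, the receptor for the cytokine that drives dendritic cell development, was negative by -0.57 ± 0.12 (adjusted p = 0.0164). The Flt3 call was lost without replicate 2 of Id2-GFP- pre-CD8, replicate 2 of Id2-GFP+ CDP or replicate 1 of Id2-GFP- CDP (adjusted p up to 0.0993). Negative early progenitor genes numbered 10 to 16 when each array was left out and 0 without the block (10 at an unadjusted p under 0.05).

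Granule genes of maturing neutrophils were higher in Id2-GFP+ cells at both stages, and the difference was smaller in pre-CD8. All 16 secondary and tertiary granule genes were higher in Id2-GFP+ pre-CD8 (median 2.67) and all 16 in Id2-GFP+ CDP (median 3.83). The interaction was negative for 13 and positive for 0 (14 and 0 at an unadjusted p under 0.05), with a median of -1.43. Ltf, lactoferrin, was 11.66 and 12.26 in Id2-GFP+ pre-CD8, against 9.04 and 9.01 in Id2-GFP- pre-CD8, and 12.38 and 13.09 in Id2-GFP+ CDP, against 8.47 and 7.32 in Id2-GFP- CDP. Its interaction was -1.91 ± 0.27 (adjusted p = 0.00193), with -1.40 in the brighter and -2.42 in the dimmer set. Camp, Chil3 and Wfdc21 had -1.47 ± 0.27, -1.53 ± 0.26 and -1.45 ± 0.24.

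The summed log2 level of these 16 genes was 15.36 and 15.57 in Id2-GFP+ pre-CD8, against 12.76 and 12.98 in Id2-GFP- pre-CD8, and 15.82 and 16.26 in Id2-GFP+ CDP, against 12.42 and 11.49 in Id2-GFP- CDP. They are markers of another cell type than dendritic cell progenitors, and their part in the results above was not tested. From 6 to 14 passed when each array was left out, and 0 without the block (11 negative at an unadjusted p under 0.05). The list called primary granule genes, not all of whose members encode granule proteins, was mixed. Of 11 members 2 were positive, Calr (0.66 ± 0.13) and Igsf6 (1.77 ± 0.28). Another 3 were negative, Cst7 (-1.15 ± 0.22), Nkg7 and Mpo, named after its value was seen (-1.24 ± 0.26). The granule proteases Elane, Prtn3 and Ctsg, also named after their values were seen, did not pass. Calr did not pass without replicate 1 of Id2-GFP- CDP (adjusted p = 0.0594), and that of Cst7 without replicate 2 of Id2-GFP- pre-CD8 or replicate 1 of Id2-GFP- CDP (adjusted p up to 0.0675).

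MHC class II genes were strongly higher in Id2-GFP+ cells at both stages, and their interactions had both signs. Of 8 genes 7 were higher in Id2-GFP+ pre-CD8 (median 3.50) and 7 in Id2-GFP+ CDP (median 2.28). H2-Aa, a chain of the class II molecule, was 12.68 and 13.11 in Id2-GFP+ pre-CD8, against 8.88 and 9.03 in Id2-GFP- pre-CD8, and 10.90 and 11.66 in Id2-GFP+ CDP, against 6.28 and 6.34 in Id2-GFP- CDP. Its levels were higher in pre-CD8 in both reporter classes, and its interaction was -1.03 ± 0.26 (adjusted p = 0.0399), lost without 6 of the 8 arrays in turn (adjusted p up to 0.184).

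H2-Eb1, another chain, had a positive interaction of 1.39 ± 0.24 (adjusted p = 0.00593), lost without Id2-GFP- CDP replicate 2 (adjusted p = 0.0555). Ciita, the activator of class II genes, had 1.68 ± 0.35 (adjusted p = 0.014), lost without replicate 2 of Id2-GFP+ pre-CD8 or without 1 of the Id2-GFP- CDP arrays (adjusted p up to 0.0891). H2-Ob, part of the chaperone that restrains peptide loading, was 10.03 and 10.47 in Id2-GFP+ pre-CD8, against 11.49 and 11.44 in Id2-GFP- pre-CD8, and 9.16 and 9.16 in Id2-GFP+ CDP, against 8.81 and 8.78 in Id2-GFP- CDP. It alone of the 8 was lower in Id2-GFP+ pre-CD8, with an interaction of -1.58 ± 0.17 (adjusted p = 0.000436).

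**Figure D4:**
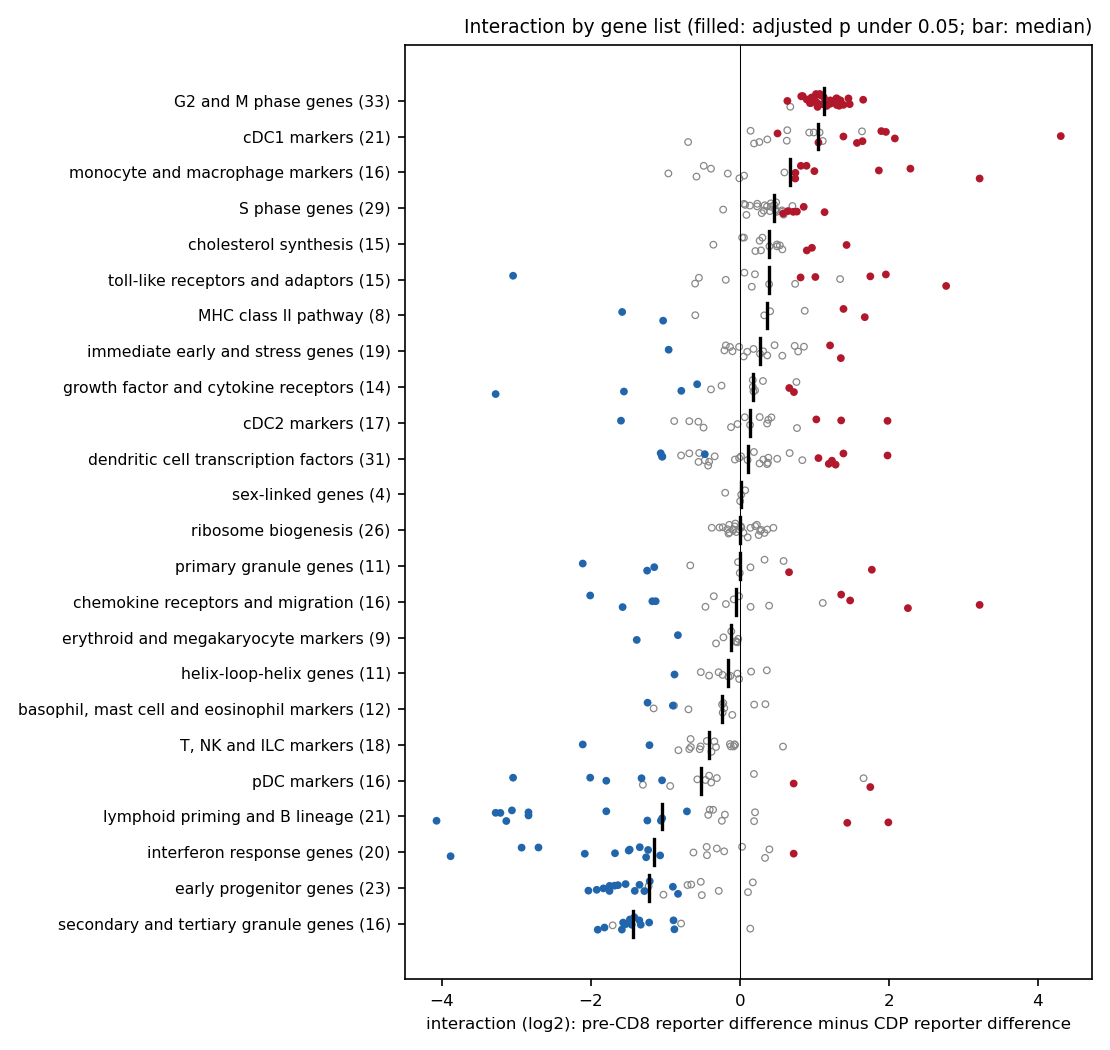
Each point is the interaction (log2) of 1 gene in 1 of 24 lists, with the number measured in brackets, filled where the adjusted p was under 0.05; the bar is the list's median. Medians run from 1.13 for G2 and M phase genes to -1.43 for secondary and tertiary granule genes.

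Receptors that sense microbes or guide migration had both signs. Of 15 toll-like receptors and adaptors 5 were positive, among them Tlr1 (2.77 ± 0.34), Tlr9 and the chaperone Unc93b1 (1.02 ± 0.15), and 1, Tlr7, was negative; the median was 0.39. The other positive members, Tlr3 (1.96 ± 0.35) and Tlr6 (0.82 ± 0.19), were named after their values were seen. The positive count was 3 without Id2-GFP- CDP replicate 2 and 0 without the block (6 at an unadjusted p under 0.05). Of 16 chemokine receptor and migration genes 4 were positive and 4 negative, with a median of -0.04. Gpr183, a receptor for oxysterols that guides dendritic cells, had 2.26 ± 0.22 (adjusted p = 0.000224), and Cx3cr1, the fractalkine receptor, 1.36 ± 0.13 (adjusted p = 0.000214). Ccr7, which takes mature dendritic cells to lymph nodes, had -1.17 ± 0.20 (adjusted p = 0.00459).

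Of 17 markers of cDC2 3 were positive, 1 was negative and 13 did not pass, with a median of 0.14. Over all genes tested 4.09% were positive and 3.40% negative. Rbpj, the effector of Notch signals, had 1.03 ± 0.17 (adjusted p = 0.0037) and Ltb, a lymphotoxin chain, -1.59 ± 0.22 (adjusted p = 0.00151). Of 14 growth factor and cytokine receptors 2 were positive, among them Csf2ra, a chain of the GM-CSF receptor (0.66 ± 0.14, lost without 5 arrays, adjusted p up to 0.121), and 4 negative, among them Csf3r, the G-CSF receptor (-1.56 ± 0.24, adjusted p = 0.00262). Their median was 0.18.

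Ribosome biogenesis genes were tested for the same contrasts. Of 26 genes 17 were lower in Id2-GFP+ pre-CD8 and 17 were lower in Id2-GFP+ CDP, by medians of -0.47 and -0.51. Over all genes tested 13.2% were lower in pre-CD8 and 4.17% in CDP. These calls rest on the block: without it limma called 0 of the 26 at either stage, with 3 lower in pre-CD8 and 1 lower in CDP at an unadjusted p under 0.05. By limma 0 had a passing interaction, with 3 positive and 0 negative at an unadjusted p under 0.05, and the median was 0.00. Cholesterol synthesis genes had 3 of 15 positive and a median of 0.40. Fdps, farnesyl diphosphate synthase, was 9.98 and 10.19 in Id2-GFP+ pre-CD8, against 8.67 and 8.75 in Id2-GFP- pre-CD8, and 9.91 and 9.91 in Id2-GFP+ CDP, against 9.91 and 10.02 in Id2-GFP- CDP, an interaction of 1.43 ± 0.16 (adjusted p = 0.000429). The calls of Hmgcs1 (0.97 ± 0.17) and Cyp51 (0.90 ± 0.20) were lost without Id2-GFP- CDP replicate 2 and without 6 arrays in turn, with adjusted p up to 0.0562 and 0.146.

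Among erythroid, megakaryocyte, basophil, mast cell and eosinophil markers, those that passed had negative interactions, as did 3.40% of all genes. The carbonic anhydrases Car1 and Car2 were the 2 of 9 erythroid and megakaryocyte markers that passed, both negative (-0.83 ± 0.18 and -1.38 ± 0.34). Gata2 and the histidine decarboxylase Hdc were the 2 of 12 basophil, mast cell and eosinophil markers (-0.90 ± 0.22 and -1.24 ± 0.22). Without 6 of the 8 arrays in turn the calls of Car1, Car2 and Gata2 were lost, and without Id2-GFP- CDP replicate 2 that of Hdc. Of 19 immediate early and stress genes 3 passed: Klf6 (1.21 ± 0.30), Hspa1a (1.36 ± 0.29) and Ier3 (-0.95 ± 0.19), and these were lost without 5, 4 and 4 arrays in turn. Hspa1a, a heat shock protein, was 6.61 and 10.32 in Id2-GFP+ pre-CD8, against 8.90 and 5.98 in Id2-GFP- pre-CD8, and 6.84 and 9.61 in Id2-GFP+ CDP, against 10.32 and 6.79 in Id2-GFP- CDP. Its replicates differed by more than its populations, with the 4 brighter arrays high, and its interaction was 2.14 in the brighter and 0.58 in the dimmer set. Of 4 sex-linked genes 0 passed (1 at an unadjusted p under 0.05).

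Within both array sets, the interactions of all 1492 genes that passed had the same sign, as 60.5% of all genes tested had. Across all 19938 genes the brighter and dimmer values correlated with an r of 0.63. Both sets enter the test, so this describes the called genes and is no separate check of them.

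**Figure D5:**
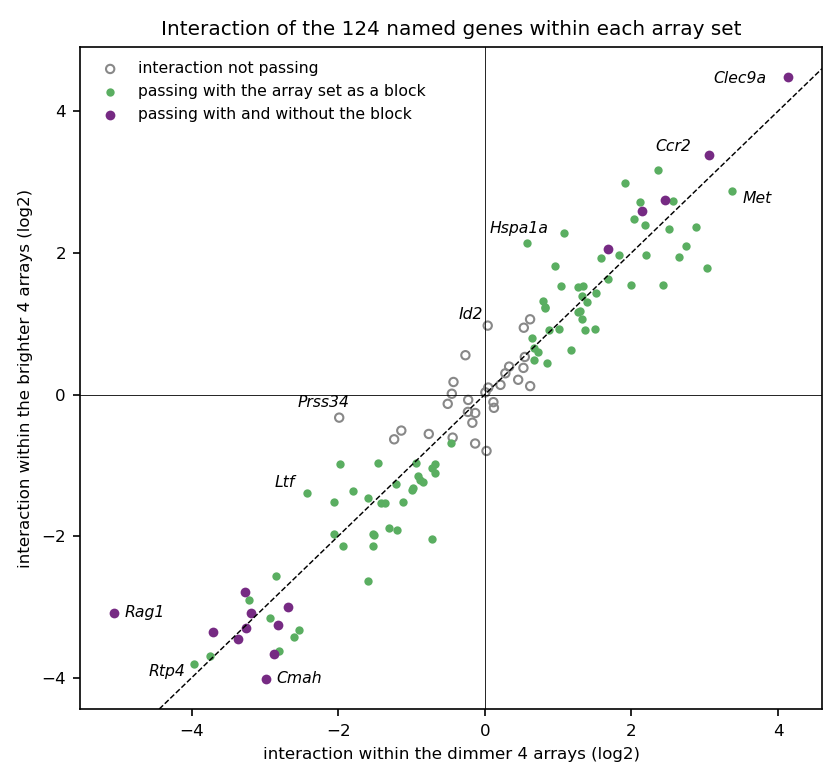
Interaction (log2) of the 124 named genes within the 4 brighter arrays (vertical axis) and within the 4 dimmer arrays (horizontal axis), with purple points for genes that passed with and without the block, green for those that passed with it and open points for those that did not pass. Points near the dashed line have equal values in both sets; Hspa1a and Rag1 lie away from it.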

How the data were processed

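RNA of 8 samples of sorted marrow progenitors was hybridised to Affymetrix mouse gene arrays, and the titles place 2 in each of 4 groups. In the deposited table are linear intensity values for 28853 probe sets; the authors made them with RMA in Expression Console, per the submitters' processing notes, and versions are not given in the sources used here. RMA compresses dim values, so differences of dim genes are understated. cDNA was labelled with a kit for picogram RNA inputs, per the labels' protocols. The design had assumed log2 values, and log2 was taken here with no further normalization.

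The array annotation gave 1 symbol to 21789 probe sets, several to 1621 and none to 5443; 21698 were matched to RefSeq by Entrez identifier, and 0 symbols changed. The probe set with the highest mean was used for each gene (999 genes had several), which left 19938 genes and no filter on dim ones. Only probe sets with exactly 1 symbol were used, and paralogs may share signal.

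limma 3.58.1 in R 4.3.3 fitted 4 group means and the array set as a fixed block, with an intensity trend (3 residual and 7.53 prior degrees of freedom). Tests were two-sided and adjusted by Benjamini-Hochberg over all genes, and 0.05 was the threshold. Precision is limited by having 2 arrays per group. The fit was also run on data simulated from the same model with the same block, which cannot test the choice of block. Python 3.11.15 was used for tables and figures.

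Named genes were Id2, the 15 largest positive and 15 largest negative interactions that passed with the same sign in both sets (predicted genes, numbered clones, smell, pheromone and taste receptors, small RNAs and antigen receptor segments left out), up to 4 members per list with the smallest p, and a fixed set of regulators and receptors. Members and lists were chosen with earlier results of these data known, as was the block. Other genes are said to be named after their values were seen, as are Tifab, Apba1, Cd8a and the promoters. Promoters of 15562 tested genes were found in a RefSeq table of GRCm38.p6.

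Deviations of same-numbered arrays correlated from -0.68 to 0.71 over 6 pairs of groups, 4 of them negative. Those of the same array set correlated from 0.63 to 0.71. With 2 arrays per group these are the same values up to sign, and the sets were cut from the arrays' own intensities. The correlations are therefore no separate check of the block and cannot settle whether replicate numbers mark pairs. Alternatives were no block, the replicate number as a block, quantile normalization, dim genes left out, no intensity trend, a robust prior, the mean of a gene's probe sets, each array left out, and values within each set.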

Additional observations from a re-analysis of the deposited data

Results flagged for a closer look

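The interaction is itself a test of whether the Id2-GFP+ minus Id2-GFP- difference is the same at both stages, so all 815 genes with a positive and all 677 with a negative value are results in which 2 groups' effects differ. Among the named genes, 6 stand out because the reporter difference passed at each stage with opposite directions, lower in Id2-GFP+ pre-CD8 and higher in Id2-GFP+ CDP. Their interactions were -3.88 for Rtp4, -3.72 for Ddx58, -3.03 for Lat, -3.02 for Padi4, -2.93 for Oas2 and -2.84 for Bank1. Lat and Bank1 passed the interaction without the block as well, and Rtp4, Ddx58, Padi4 and Oas2 did not. Passing the interaction does not test the CDP difference on its own. With the block, limma gave that of Lat an adjusted p of 0.0496, close to the threshold. The others had 0.0301 (Rtp4), 0.00889 (Bank1), 0.00218 (Ddx58), 0.00165 (Oas2) and 1.89e-05 (Padi4).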

How the results depend on the processing

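Counts of calls depended most on the block. With no array-set block, limma gave 7 positive and 22 negative interactions, and with the replicate number as a block 1 and 5 (1227 and 1019 genes in all at an unadjusted p under 0.05). The reporter difference then gave 711 higher and 538 lower genes in pre-CD8 with no block and 498 and 340 with the replicate block, and 119 and 0, or 85 and 0, in CDP, where 413 and 257 genes were lower at an unadjusted p under 0.05. The stage difference gave 206 higher and 118 lower genes, or 110 and 47, in Id2-GFP- cells. In Id2-GFP+ cells it gave 0 in either direction under both settings (323 higher and 320 lower with no block, and 272 and 247 with the replicate block, at an unadjusted p under 0.05). Differences themselves do not move with the block, and their standard errors do.

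Leaving out each array in turn gave 298 to 805 positive and 350 to 848 negative interactions, the lowest totals without Id2-GFP- CDP replicate 2. The pre-CD8 reporter difference gave 1491 to 2384 higher and 1521 to 2925 lower genes, the CDP difference 199 to 804 and 48 to 977, the stage difference 54 to 314 and 57 to 369 in Id2-GFP+ cells, and 621 to 1338 and 506 to 1441 in Id2-GFP- cells. Where an array is left out, its population is assumed to vary like the others.

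Quantile normalization gave 738 positive and 706 negative interactions, leaving out dim genes 920 and 571 of 9969 genes, no intensity trend 640 and 595, a robust prior 832 and 667, and the mean of a gene's probe sets 815 and 676; these shared 1259, 1279, 1216, 1418 and 1468 genes with the 1492. Of the 95 named genes that passed, the direction stayed the same in every setting that gave a value, and leaving out dim genes gave none for 11. The choice of block, intensity trend or prior cannot change a direction, because the differences do not move with it. All 1492 genes that passed also had the same sign within both array sets. The constant direction was therefore largely fixed in advance and is no separate check of these genes.

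The interaction of Id2 was 0.97 within the brighter and 0.040 within the dimmer set, and -0.14 to 1.15 over the fits that left out an array. Directions of genes that did not pass also turned. Over those fits the interaction ranged from -0.000476 to 0.039 for Eif2s3y, -0.38 to 0.13 for Id3, -2.31 to 0.0029 for Prss34, -0.20 to 0.13 for Tcf3, -0.17 to 0.18 for Uty and -0.15 to 0.44 for Xcr1. Under quantile normalization it was -0.053 for Eif2s3y and -0.013 for Uty. The cause of these changes was not tested. No detection call was used, so how far dim genes lie above background is unknown.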
